A study of Mus musculus with 8 samples.

Results

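Splenic CD8+ T cells were compared after 6 h of stimulation through the T cell receptor (TCR), without interferon beta (IFNβ), and with no treatment. The comparison is the log2 signal on the 1 array labelled TCR 6 h minus the mean log2 signal of the 2 untreated arrays, for each gene, taken from the gene's brightest probe that was well above background on at least 2 of the 8 arrays of the series. It covered 19747 genes of the 19896 kept in the whole series. The cells came from OT-I mice on a C57BL6 background, which carry a transgenic TCR for the ovalbumin peptide SIINFEKL presented by the class I molecule H-2Kb, so the mice of every group share that receptor. They were isolated from spleen with a pan T cell kit and magnetic separation, with a purity of 90 to 97% by flow cytometry per the labels, and stimulated with streptamers, which are Strep-Tactin complexes of recombinant H-2Kb loaded with SIINFEKL. The other arrays of the series carry IFNβ alone for 2 h or 7 h, TCR stimulation alone for 1 h, or IFNβ for 1 h followed by TCR stimulation for 1 h or 6 h. The labels do not say whether the arrays came from separate mice or cultures. No hours in culture are given for the untreated cells, so time in culture and TCR stimulation cannot be told apart here.

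A T cell receptor that meets its peptide on a class I molecule starts tyrosine kinase signalling through Lck and Zap70, which leads to calcium entry and NFAT, to the MAP kinases and to NF-kB. These pathways first switch on immediate early transcription factors and then cytokine genes. In naive CD8+ T cells the same signal turns off genes of the resting state and turns on the synthesis of ribosomes, proteins and nucleotides that precedes cell division.

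Values are given as scaled signal, a linear intensity after each array was brought to a 75th percentile of 1500, with values below 15 set to 15. Levels of different genes come from different probes and cannot be set against each other. The treated condition has 1 array and therefore no replicate error, so a gene is called higher or lower where it differs by at least 2-fold in the same direction from each untreated array. The untreated arrays themselves differed by at least 2-fold for 301 of 19785 genes, with an SD of their log2 difference of 0.286, against an SD of 1.52 for the TCR 6 h difference. A test was possible only by adding a second pair of arrays, IFNβ 1 h with TCR 6 h and IFNβ 7 h alone. A linear model with limma over 4 samples (the untreated mean, IFNβ 7 h, TCR 6 h, and IFNβ 1 h with TCR 6 h) gave a TCR 6 h term with 1 residual degree of freedom. In the text "rose" and "fell" are used of genes that passed in that model at an adjusted p under 0.05. Its estimates are log2 changes averaged over both pairs, with their standard errors. In the second pair the labels give IFNβ for 7 h without TCR stimulation and for 1 h before it, so the term also holds that difference. The model's 1 residual degree of freedom is the difference between the 2 pairs. A gene whose response was unlike in them therefore has a large error and may not pass. Because the 2 untreated arrays differed by about the noise between spots, they were counted as 1 sample there.

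Stimulation for 6 h was associated with differences across much of the measured transcriptome. At least 2-fold higher signal than each untreated array was found for 3797 genes (19.2% of those measured), and at least 2-fold lower signal for 3928 (19.9%). The counts of list members below stand beside these shares, and a count near them does not set a list apart from all genes. Differences of at least 4-fold were found for 1456 genes higher and 1723 lower, and of at least 16-fold for 179 higher and 238 lower. At 64-fold or more there were 44 genes higher and 20 lower. In the model 3193 of 19686 genes rose (16.2%) and 3314 fell (16.8%). The median over all genes was 0.15 on the log2 scale, and it moved from 0.148 to 0.341 when arrays were scaled on their medians, so each direction below holds relative to the 75th percentile.

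**Figure D1:**
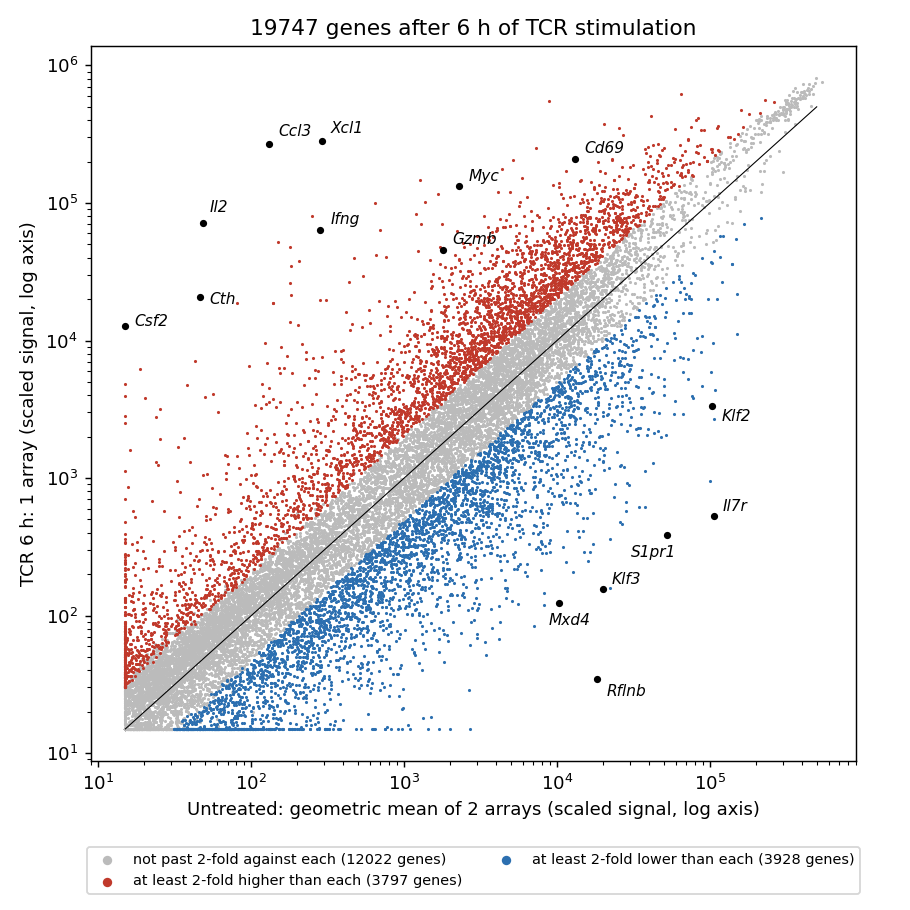
Scaled signal of 19747 genes on the TCR 6 h array (vertical, log axis) against the geometric mean of the 2 untreated arrays (horizontal, log axis), with equality as a line. Red points are the 3797 genes at least 2-fold higher than each untreated array and blue points the 3928 lower, and Il2, Ccl3 and Xcl1 lie far above the line while Il7r, S1pr1 and Rflnb lie far below it.

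Genes of cytokines and chemokines were among those with the highest single differences. Of 36 measured members of the list 23 were higher and 2 lower, with a median of 3.27 on the log2 scale, and in the model 21 rose and 2 fell. Ccl3, a chemokine that attracts monocytes and T cells, had signals of 135 and 128 on the untreated arrays and 270000 on the TCR 6 h array, a log2 difference of 11 (probe at chr11:83461358-83461417 in mm9). Il2, the T cell growth factor, went from 45.9 and 50.1 to 71400, a difference of 10.54. Xcl1, which attracts cross-presenting dendritic cells, went from 283 and 296 to 284000. Each of the 3 had close values on the untreated arrays.

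In the model the log2 change was 10.22 ± 0.47 for Ccl3, 10.28 ± 0.31 for Il2 and 10.00 ± 0.29 for Xcl1 (SE, each with an adjusted p of 0.0055). The second Il2 probe, well above background on 2 of the 3 arrays, had 22.4 and 27.5 in untreated cells and 49500 after stimulation. Ifng, the effector cytokine that activates macrophages, had 287 and 274 in untreated cells and 63800 after stimulation, and its second probe differed by 7.97 against 7.83. Tnf, which drives inflammation, had 176 and 181 in untreated cells and 13700 after stimulation. Tnfsf14, which encodes the TNF family ligand LIGHT, had 198 and 213 against 37600. All 3 genes rose.

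Csf2, Il3 and Il17a were not well above background on either untreated array, so their differences have only a lower bound. The bound was taken against the lowest signal well above background on each untreated array. Csf2, which encodes GM-CSF, was at least 566-fold higher, with 15 on both untreated arrays and 12700 after stimulation. Il3 was at least 216-fold higher and Il17a at least 69.7-fold. On the other side Il16, encoding a chemoattractant made as a precursor in resting T cells, fell from 13000 and 12400 to 2830. Il10, which dampens immune responses, fell from 284 and 280 to 101.

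The promoter of Il2 is shown because the gene is a textbook NFAT target and had the second highest difference of all. The stretch is the 250 bases before the annotated start (chr3:37125955-37126204, minus strand, GRCm38.p6), with the NFAT core letters GGAAA on either strand in capitals.
Il2: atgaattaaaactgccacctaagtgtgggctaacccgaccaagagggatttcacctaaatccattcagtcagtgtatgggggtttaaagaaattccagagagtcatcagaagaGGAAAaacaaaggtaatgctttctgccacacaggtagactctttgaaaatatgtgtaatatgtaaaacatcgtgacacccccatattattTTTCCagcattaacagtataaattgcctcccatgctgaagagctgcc
The stretch holds 2 matches, the first of them 137 bases before the start. These letters are common. They occur in 61.4% of all 32841 promoter windows in the table (250 bases before to 50 after each start) and in 30 of the 32 windows of cytokine and chemokine genes (93.8%), which belong to 29 of the 36 measured members. Over all genes GGAAA was found in 60.2% of windows of genes called higher, 57.9% of genes called lower and 59.4% of the others. No test was made of these shares, and the list was chosen with earlier results of these data known. A match of letters is a description and shows no binding.

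Genes of killing and of the cell surface moved in both directions. Of 18 measured cytotoxic effectors 10 were higher and 2 lower, with a median of 1.33. Gzmb, the main granzyme of activated CD8+ T cells, had 1810 and 1780 in untreated cells and 45700 after stimulation, and rose by 4.21 ± 0.36 in the model (SE, adjusted p = 0.0062). Gzmc had 75.2 and 86.7 against 18700, a difference of 7.86, while the interferon-treated pair gave 4.32. Gzma, a granzyme of memory and NK cells, fell from 537 and 518 to 89.6, and the cathepsin gene Ctsw fell from 33300 and 34500 to 2060. Granzyme genes did not all move the same way. Crtam, an adhesion receptor of activated cytotoxic cells, and Serpinb9, an inhibitor of granzyme B, rose, with log2 differences of 6.13 and 4.96.

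Among 22 activation and costimulatory receptors 14 were higher and 1 lower, with a median of 2.12, and the same numbers rose and fell in the model. Il2ra, the high-affinity chain of the IL-2 receptor, had 182 and 180 in untreated cells and 21400 after stimulation, a difference of 6.89, and the other probe that was well above background on all 3 arrays differed by 7.35. Slamf7, a homophilic receptor of activated lymphocytes, had 652 and 628 against 100000. Tnfrsf9, the costimulatory receptor 4-1BB, had 1340 and 1190 against 147000. Cd69, the early activation marker that retains cells in lymphoid tissue, was already at 13100 and 13200 in untreated cells and reached 210000. It rose by 2.68 ± 0.68 in the model (SE, adjusted p = 0.043), with a difference of 4.00 without IFNβ and 1.37 in the interferon-treated pair. Cd38 was the exception on the list and fell from 233 and 244 to 75.1, a difference that was not past 2-fold with normexp background correction.

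Inhibitory receptors and ligands were split, with 8 of 16 higher and 5 lower. Cd160 (57.4-fold) and Pdcd1lg2, which encodes the PD-1 ligand PD-L2 (43.8-fold), rose, as did Cd5 (6.52-fold), a brake on TCR signalling. Cd274, which encodes PD-L1, was higher, with 1040 and 1100 against 20100, but did not pass in the model (adjusted p = 0.23), with -0.25 in the interferon-treated pair. Cd96, Nt5e, Klrg1 and Lair1 fell by 2.69-fold to 6.89-fold between untreated and stimulated cells.

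Cytokine receptors ran mostly downward, with 3 of 28 higher, 14 lower and a median of -0.95. Il7r, the receptor for the survival cytokine IL-7, went from 105000 and 107000 to 526, a difference of -7.65, and the other probe that was well above background on all 3 arrays gave -6.81. Both chains of the interferon gamma receptor fell. Ifngr1 had 151000 and 149000 in untreated cells and 11100 after stimulation, and Ifngr2 had 8780 and 8350 against 457. Il18r1 fell from 4090 and 4220 to 374. The 3 members that were higher were Il2ra, Il15ra (167 and 174 against 7730) and Il12rb1 (220 and 223 against 4740), chains of the receptors for IL-2, IL-15 and IL-12, and all 3 rose.

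**Figure D2:**
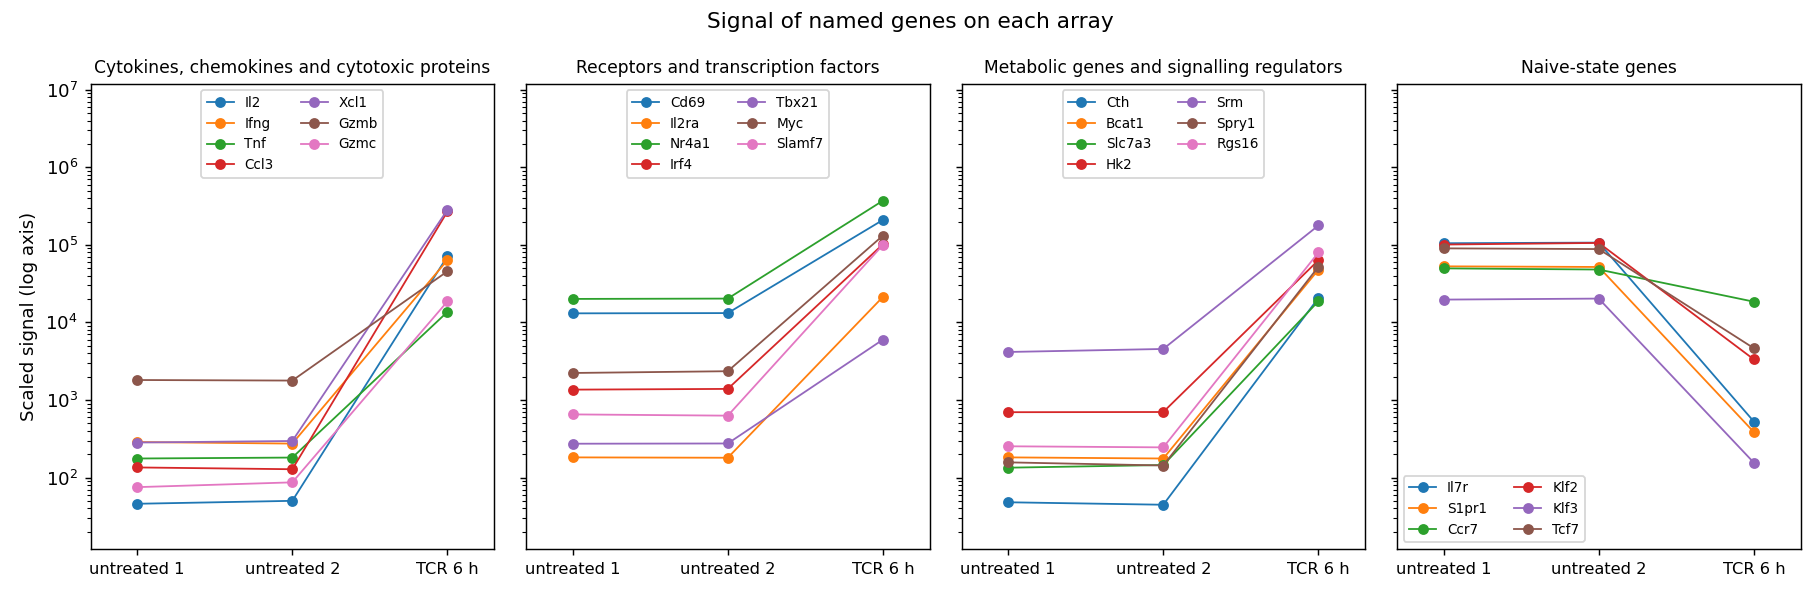
Scaled signal (log axis) of named genes on untreated array 1, untreated array 2 and the TCR 6 h array, in 4 panels by role, with 1 point per array. The untreated points of each gene lie close together, and every cytokine, receptor and metabolic gene shown is higher on the TCR 6 h array while every naive-state gene shown is lower.

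Immediate early and calcium response factors were still above untreated cells at 6 h, with 23 of 35 higher and 3 lower (median 1.64). Nr4a1, an orphan nuclear receptor that reports TCR signal strength, had 20100 and 20300 in untreated cells and 372000 after stimulation. Egr2 had 3360 and 3280 against 79900, Nr4a2 had 1740 and 1690 against 47700, and the stress factor gene Atf3 had 497 and 450 against 39800. Spry1, an inhibitor of MAP kinase signalling, had 157 and 143 against 52300, a difference of 8.45. All of these rose. Fosl1 was at least 170-fold higher. Dusp1, which encodes a MAP kinase phosphatase, was lower, with 3870 and 3690 against 630, but did not pass (adjusted p = 0.15), and Nfatc3 fell from 5800 and 6030 to 1480.

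The TCR 1 h array shares its untreated controls with this comparison, so the values are only set side by side. At 1 h 1704 genes (8.63%) were at least 2-fold above the untreated mean and 1569 (7.95%) at least 2-fold below it. The list of immediate early factors had a median of 2.98 at 1 h and 1.64 at 6 h, and the naive-state list -0.64 and -3.44. For ribosome biogenesis the medians were 0.91 and 2.85. Tnf stood at 8.76 at 1 h and 6.26 at 6 h, Egr2 at 6.38 and 4.59, and Nr4a2 at 6.97 and 4.80. Il2 stood at 8.65 and 10.54, Il2ra at 2.33 and 6.89, and Gzmb at 1.18 and 4.67. The transsulfuration gene Cth was near untreated cells at 1 h, at 0.72, and at 8.81 at 6 h. The deposited value table and the scanner files disagree on which of the 2 arrays with 1 h of TCR stimulation had IFNβ, and the value table's assignment is used here. That disagreement does not touch the 6 h arrays.

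The scanner files' assignment was tried as an alternative chosen after seeing the data. At 1 h it gave 1952 of 19721 genes at least 2-fold higher and 1234 at least 2-fold lower, and list medians of 2.72 for immediate early factors, -0.75 for the naive-state list and 0.37 for ribosome biogenesis. Il2 then stood at 4.56 at 1 h, Tnf at 7.29, Egr2 at 6.33, Nr4a2 at 5.44, Il2ra at 3.83, Gzmb at 2.80 and Cth at 0.89, each on the same side of its 6 h value as before. Atf3 stood at 7.55 at 1 h by the value table and 5.61 by the scanner files, against 6.4 at 6 h, and Tnfsf14 at 9.15 and 6.89 against 7.52, so for both genes the order of 1 h and 6 h depends on the assignment. The interferon-induced GTPase gene Iigp1 stood at -0.43 at 1 h by the value table and 7.20 by the scanner files. The median of the interferon response list was -0.18 and 4.56. Ifit3 had 681 by the value table and 198000 by the scanner files, against 1290 and 1200 in untreated cells and 203000 with IFNβ for 2 h. For Ifit3 the array used here was thus closer to untreated cells, and the array of the scanner files' assignment closer to IFNβ for 2 h. Which assignment is right was not tested.

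**Figure D3:**
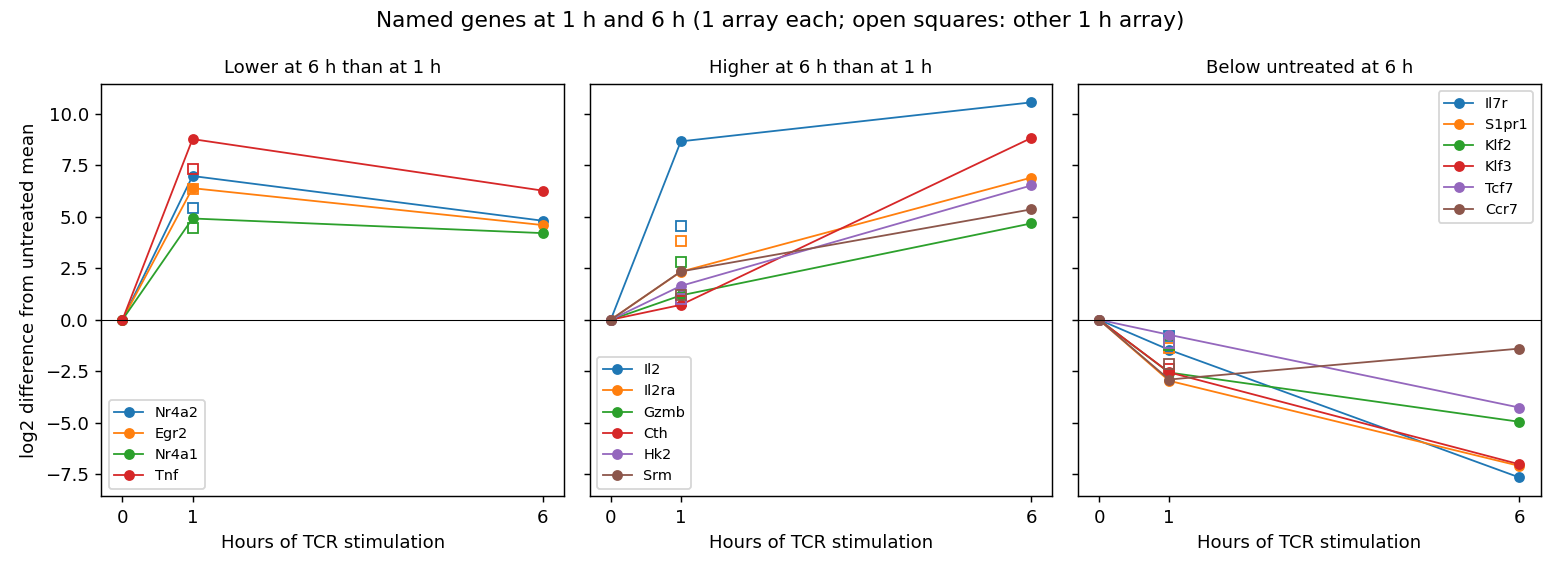
Log2 difference from the untreated mean (vertical) at 0, 1 and 6 h of TCR stimulation (horizontal) for named genes, with 1 array at each of 1 h and 6 h, the same untreated arrays behind both, and open squares for the 1 h array of the scanner files' assignment. Nr4a2, Egr2, Nr4a1 and Tnf stand lower at 6 h than at 1 h under either assignment, Il2, Il2ra, Gzmb, Cth, Hk2 and Srm stand higher, and Ccr7 alone among the 6 genes of the right panel is closer to untreated cells at 6 h.

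Transcription factors of effector and memory cells moved in both directions. Of 29 measured members 11 were higher and 8 lower (median 0.51, and 0.05 with quantile normalization), and in the model 10 rose and 6 fell. Irf4, which scales with TCR signal strength, had 1360 and 1390 in untreated cells and 102000 after stimulation. Tbx21, which encodes T-bet, the driver of the effector programme, had 273 and 275 against 6010. Irf8 had 650 and 659 against 41900 and Bhlhe40 had 689 and 690 against 19300. These 4 genes rose, while Maf and Ikzf2 fell, with differences of -2.64 and -2.16. Gata3 and Myb were lower at -2.06 and -1.86 but did not pass (adjusted p = 0.11 and 0.17). The zinc finger gene Hivep3 had 171 and 192 against 34700 on its brightest probe, while another of its 3 probes, in a different part of the gene, differed by -0.41.

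The NF-kB list had 9 of 23 members higher and 5 lower (median 0.90), against 19.2% and 19.9% of all genes, so the count of lower members was near the share of all genes. The subunits Nfkb1 and Rel rose 8.37-fold and 8.20-fold between untreated and stimulated cells, and Nfkbid, which encodes a nuclear NF-kB regulator, 11-fold. Malt1, a protease that links the receptor to NF-kB, rose 7.35-fold. Ikbke fell from 10500 and 11400 to 652.

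Genes of the receptor complex and its proximal signalling were lower more often than higher. Of 34 members 8 were higher and 14 lower (median -0.62), and in the model 6 rose and 14 fell. Lcp2, which encodes the adaptor SLP-76, rose from 14800 and 14500 to 107000, and the kinase gene Zap70 rose from 16200 and 15400 to 92900. The calcium channel gene Orai1 rose from 2500 and 2510 to 15100, while Stim1, which encodes the sensor that opens that channel, fell from 13600 and 12100 to 1470. The adaptor genes Fyb and Grap2 and the Tec kinase gene Txk fell by 4.31, 3.52 and 3.64 on the log2 scale. Rasgrp2, an activator of the GTPase Rap1, was not well above background after stimulation and was at least 79.9-fold lower. Partners in the same signalling module thus moved in opposite directions.

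Negative regulators of TCR signalling were also split, with 8 of 26 higher and 11 lower. Cish, an induced inhibitor of PLCγ1, and Sla, which encodes the adaptor SLAP, rose 22.3-fold and 13.6-fold between untreated and stimulated cells. Sla2, which encodes the related SLAP2, fell from 13600 and 13700 to 409. The diacylglycerol kinase gene Dgka fell from 101000 and 102000 to 5920, and Sh2d1a and Socs3 fell 13.9-fold and 10.0-fold. Rgs16, which limits signalling from chemokine receptors, rose from 253 and 245 to 79800. Dusp10, a phosphatase gene for JNK and p38, fell from 8220 and 8210 to 119.

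The MYC network list had few members and a median of 0.24, which was -0.10 with quantile normalization. Its named members moved apart. Myc had 2230 and 2350 in untreated cells and 132000 after stimulation, with differences of 5.81 to 5.90 over its 3 probes, and it rose by 5.07 ± 0.47 in the model (SE, adjusted p = 0.0065). Mxd4, Mxd3, Mxd1 and Mxi1, which encode antagonists that compete with MYC for its partner MAX, fell. Mxd4 went from 10300 and 10300 to 123, Mxd3 from 835 and 695 to 81.9, Mxd1 from 3990 and 4050 to 700, and Mxi1 from 3810 and 4090 to 1200.

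Every measured member of the ribosome biogenesis list was higher. The list was chosen with earlier results of these data known, so its share is not an independent result. All 50 members were past 2-fold against each untreated array, with a range of 1.66 to 4.49 on the log2 scale and a median of 2.85, against 19.2% of all genes, and all 50 rose in the model. Rrp1b went from 844 and 897 to 19500, Nolc1 from 3560 and 3540 to 66700, Grwd1 from 1860 and 1820 to 34400, and Nop16 from 4300 and 4180 to 76700. All of them encode nucleolar or ribosome assembly factors. Cytosolic ribosomal proteins, the products those factors assemble, differed little. Only Rpl14 of 40 was past 2-fold (6950 and 6970 against 17600), and it was not with quantile normalization, and the list ranged from 0.40 to 1.34 with a median of 0.63, which was -0.05 with quantile normalization. Translation initiation factors and tRNA synthetases had 33 of 34 higher, with Eif4ebp1, an inhibitor of cap-dependent translation, from 5910 and 5880 to 152000 and the tyrosyl-tRNA synthetase gene Yars from 4720 and 4870 to 43800.

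Amino acid supply had the highest list median, 3.79, with 28 of 31 members of the ATF4 programme higher, none lower, and 28 risen in the model. ATF4 is a transcription factor translated under amino acid shortage and stress. Cth, which makes cysteine from cystathionine, had 48.0 and 44.6 in untreated cells and 20700 after stimulation. Bcat1, the cytosolic branched-chain aminotransferase, had 182 and 176 against 47900, and the arginine and lysine transporter gene Slc7a3 had 134 and 145 against 18800. Pycr1, which makes proline, had 46.7 and 52.5 against 3890. In the interferon-treated pair the differences were 7.82 for Bcat1, 5.61 for Slc7a3 and 6.87 for Pycr1, while Cth was not well above background with IFNβ alone.

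Short stretches of promoters are shown for the ATF4 list, which had the highest list median, and for genes with the letters that MYC binds, since Myc was among the genes that rose. For ATF4 the letters TGATGNAA, the composite element bound by C/EBP and ATF proteins, were searched on both strands. They occur in 7 of the 32 windows found for 26 of the 31 list members (21.9%) and in 3.97% of all windows. Since the list was put together as genes of the ATF4 programme, its share is not an independent result. The 5 stretches with a match before the start are given, from GRCm38.p6 and on the gene's strand, with the match in capitals. They are Pycr1 at chr11:120643827-120643868, Chac1 at chr2:119351032-119351073, Asns at chr6:7693210-7693249, Slc7a11 at chr3:50443636-50443677 and Vldlr at chr19:27216803-27216844.
Pycr1: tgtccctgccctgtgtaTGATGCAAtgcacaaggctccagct
Chac1: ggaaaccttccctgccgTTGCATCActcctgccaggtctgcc
Asns: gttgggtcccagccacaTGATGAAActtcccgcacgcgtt
Slc7a11: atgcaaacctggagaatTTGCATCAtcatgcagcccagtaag
Vldlr: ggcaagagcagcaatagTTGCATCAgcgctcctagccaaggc
Chac1, which degrades glutathione, rose from 1190 and 1210 to 83000, and the asparagine synthetase gene Asns rose from 3990 and 4110 to 66300. The cystine transporter gene Slc7a11 rose, with 18.7 and 20.3 against 123, and Vldlr was not past 2-fold, with a difference of -0.19. The match in Asns begins 23 bases before the start and those in Slc7a11 and Pycr1 47 and 103 bases before it.

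For MYC the E-box letters CACGTG, which read the same on both strands, were searched. They occur in 10 of 54 windows of ribosome biogenesis genes (18.5%), in 7 of 30 windows of nucleotide and one-carbon genes (23.3%), in 4 of 34 windows of cytosolic ribosomal proteins (11.8%) and in 7.15% of all windows. Over all genes they were found in 12.9% of 3027 windows of genes called higher, 8.29% of 3136 windows of genes called lower and 8.13% of 8935 windows of the others. For TGATGNAA the same shares were 2.71%, 1.85% and 2.84%. No test was made of these shares, and 2478 of the 3797 genes called higher had a window in the table. The stretches with a match before the start are shown for both ribosome biogenesis genes that have one, Nop2 at chr6:125131806-125131845 and Rrn3 at chr16:13780634-13780673, and for the 4 nucleotide genes with the highest differences among those that have one, Nme1 at chr11:93968273-93968307, Dtymk at chr1:93802060-93802099, Impdh2 at chr9:108560309-108560348 and Atic at chr1:71557132-71557155.
Nop2: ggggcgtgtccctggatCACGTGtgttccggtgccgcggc
Rrn3: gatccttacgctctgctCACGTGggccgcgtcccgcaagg
Nme1: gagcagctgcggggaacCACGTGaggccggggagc
Dtymk: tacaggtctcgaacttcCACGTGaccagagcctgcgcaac
Impdh2: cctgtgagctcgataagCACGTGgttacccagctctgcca
Atic: gggcgggacctcggggtCACGTGg
Nop2, a ribosomal RNA methyltransferase gene, rose from 4700 and 4590 to 75400, and Rrn3, an initiation factor gene of RNA polymerase I, rose from 3980 and 4100 to 15200. The thymidylate kinase gene Dtymk rose from 6590 and 7170 to 44800.

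**Figure D4:**
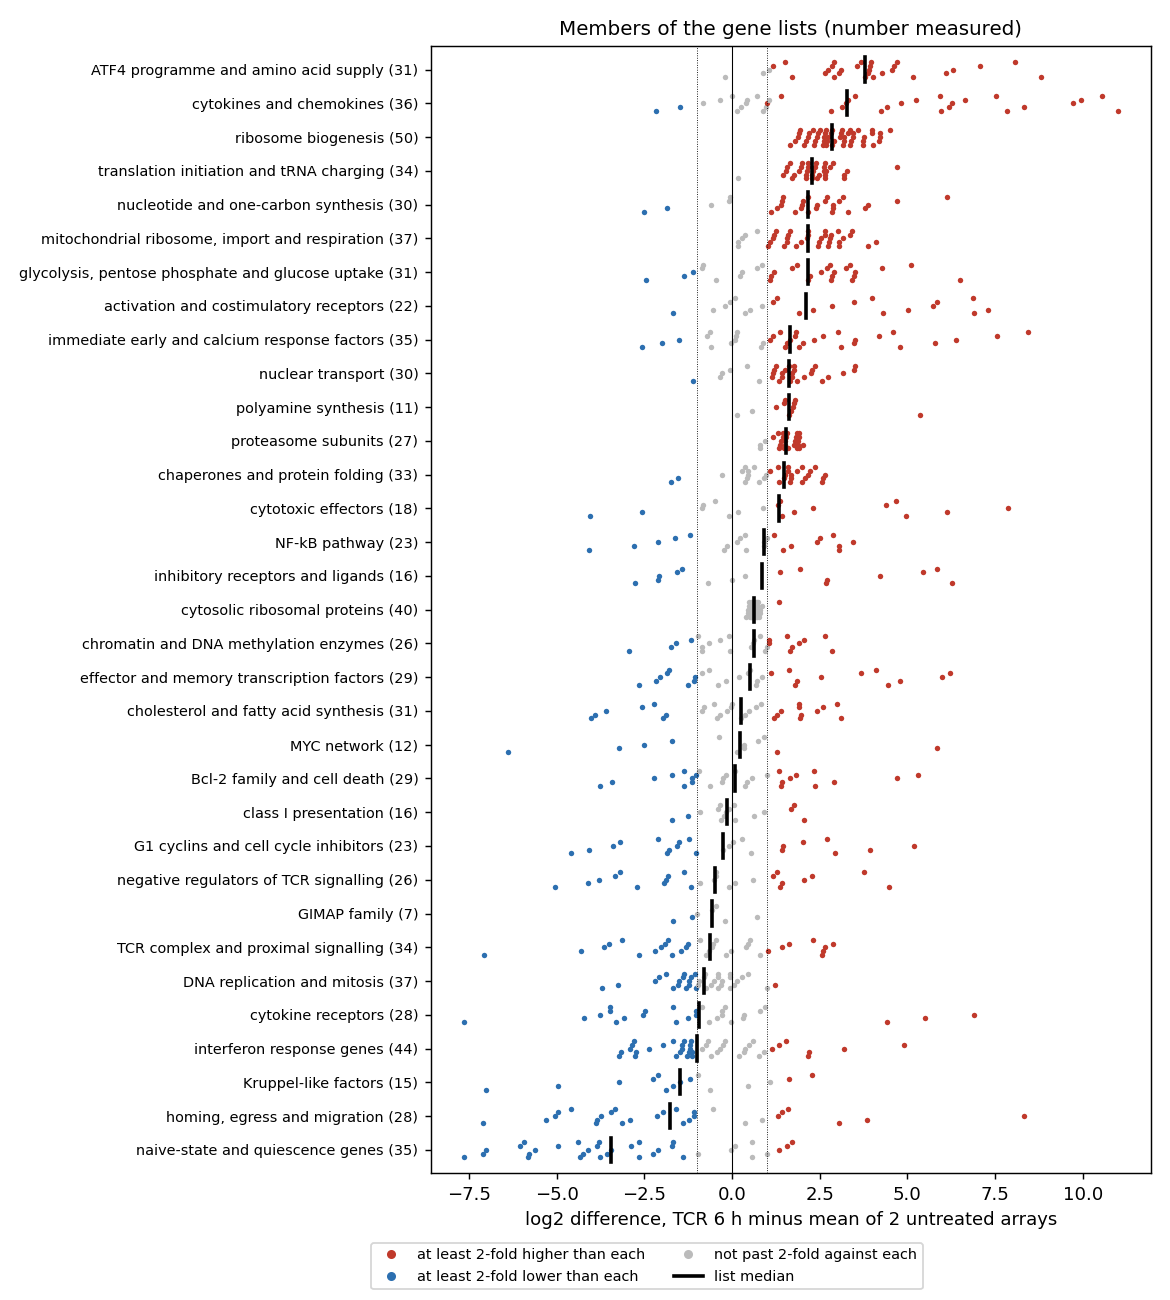
Log2 difference between TCR 6 h and the untreated mean (horizontal) for each measured member of 33 gene lists (rows, with the number measured), sorted by the list median (black bar). Dotted lines mark 2-fold, and all 50 points of ribosome biogenesis lie to the right of them while 26 of 35 points of the naive-state list are called lower.

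In glycolysis, the pentose phosphate pathway and glucose uptake 21 of 31 members were higher and 3 lower (median 2.16). Hk2, the hexokinase that traps glucose, had 696 and 700 in untreated cells and 63500 after stimulation, and rose by 6.55 ± 0.29 (SE, adjusted p = 0.0055). Tpi1 had 7500 and 7070 against 249000 and the lactate exporter gene Slc16a3 had 1580 and 1520 against 30200. Ldhb, whose enzyme form favours lactate use, fell from 4850 and 4510 to 854, and Pfkfb4 and Pfkm fell 2.61-fold and 2.15-fold, the latter not past 2-fold with median scaling, quantile normalization or normexp.

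Nucleotide and one-carbon synthesis had 25 of 30 members higher and 2 lower (median 2.17). The serine hydroxymethyltransferase genes Shmt1 and Shmt2 went from 273 and 290 to 19600 and from 4910 and 4880 to 67500. Mthfd2, their mitochondrial partner in folate metabolism, went from 1500 and 1460 to 38600. Among the members called lower, the ribonucleotide reductase gene Rrm2, which supplies DNA synthesis, had a difference of -2.50, with 1490 and 1530 against 266, but did not pass (adjusted p = 0.053).

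Polyamine synthesis had 9 of 11 members higher, led by the spermidine synthase gene Srm, from 4160 and 4550 to 178000. Mitochondrial ribosome, import and respiration genes had 32 of 37 higher (median 2.16), led by the import chaperone genes Timm10 (17.3-fold) and Timm8a1 (14.6-fold). Proteasome subunits had 24 of 27 higher within a narrow range of 0.79 to 2.01. Nuclear transport had 24 of 30 higher, with the tRNA exporter gene Xpot from 2570 and 2500 to 28700. Chaperones had 20 of 33 higher, led by the chaperonin gene Cct6a (6.27-fold). The heat shock genes Hspa1a and Hspa1b were lower, at -1.74 and -1.53, and did not pass (adjusted p = 0.24 and 0.49).

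Cholesterol and fatty acid genes were split, with 11 of 31 higher and 7 lower, against 19.2% and 19.9% of all genes. Sqle and Idi1, enzymes of the cholesterol pathway, rose 8.64-fold and 7.98-fold. The cholesterol exporter genes Abca1 and Abcg1 fell from 1910 and 1950 to 118 and from 13600 and 13500 to 912. The fatty acid elongase gene Elovl6 fell from 3820 and 3670 to 309.

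Genes of DNA replication and mitosis were lower or not past 2-fold apart from Pcna. Of 37 genes of DNA replication and mitosis 1 was higher and 16 lower, with a median of -0.81, and in the model 2 rose and 5 fell. Pcna, the sliding clamp of DNA polymerase, rose from 72300 and 70600 to 168000, and was not past 2-fold with quantile normalization. E2f2 fell from 4030 and 3390 to 285, E2f7 from 254 and 292 to 28.9, and Cdc6 from 756 and 749 to 165. Among G1 cyclins and inhibitors 7 of 23 were higher and 11 lower. The G1 kinase gene Cdk4 rose from 5790 and 5650 to 37500, and Ccnd2 was higher, with 15100 and 15000 against 116000, but did not pass (adjusted p = 0.16), with 0.22 in the interferon-treated pair. Cdkn1b, which encodes p27, fell from 26900 and 25600 to 2490, Cdkn2d from 13100 and 13100 to 775 and the pocket protein gene Rbl2 from 8140 and 7830 to 332. Cdkn1a, which encodes p21, went the other way and rose from 227 and 227 to 8260.

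The Bcl-2 family list had 10 of 29 members higher and 9 lower, with a median of 0.07 (-0.30 with quantile normalization). The survival genes Bcl2a1b and Bcl2l1 rose, from 5000 and 5280 to 204000 and from 290 and 287 to 7530. Bcl2a1b belongs to a family of near-identical copies whose signals a probe may not separate. The caspase gene Casp9 and the BH3-only gene Bad fell 10.8-fold and 4.67-fold, and the BH3-only gene Bid rose 7.48-fold. Bmf was lower, with 1550 and 1720 against 121, and did not pass (adjusted p = 0.081).

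Genes of the naive and resting state were the lowest list, with 26 of 35 members lower and 3 higher, a median of -3.44, and 26 fallen and 1 risen in the model. S1pr1, which lets T cells leave lymphoid tissue, went from 52900 and 51900 to 385. Klf2, a transcription factor that drives it, went from 101000 and 106000 to 3330. A second, dimmer Klf2 probe stood at 6670 and 6450 against 5070. The related factor gene Klf3 went from 19700 and 20300 to 155, and Tcf7, which encodes TCF-1, from 90200 and 88300 to 4640.

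In the model the log2 change was -7.49 ± 0.30 for Il7r, -6.75 ± 0.33 for S1pr1, -5.11 ± 0.30 for Klf2 (SE, adjusted p = 0.0055 for each) and -3.92 ± 0.33 for Tcf7. Ccr7, the receptor for lymph node chemokines, fell less, from 49800 and 48100 to 18500 (-1.15 ± 0.31 in the model, SE, adjusted p = 0.049). The 3 members called higher were Bach2, Tob2 and Foxp1. Bach2, a repressor of effector genes, had 5590 and 5920 against 18800 on its single kept probe and did not pass (adjusted p = 0.32), with -0.17 in the interferon-treated pair. Foxp1 did not pass either (adjusted p = 0.053), and the antiproliferative gene Tob2 rose.

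Homing, egress and migration genes had 19 of 28 members lower and 6 higher (median -1.78). The integrin genes Itga4, Itgae and Itgb7, which encode chains of gut-homing and epithelial-binding integrins, fell from 1930 and 1730 to 46.0, from 6330 and 6490 to 193 and from 28600 and 28900 to 915. Cxcr6 was higher, with 6200 and 6230 against 51700, and did not pass (adjusted p = 0.27), with -0.29 in the interferon-treated pair. Kruppel-like factors had 9 of 15 members lower and 2 higher, the latter being Klf9 (4.81-fold) and Klf16 (3.08-fold), and both rose. The GIMAP GTPase genes had 2 of 7 lower, Gimap9 and Gimap3, of which Gimap9 fell and Gimap3 did not pass (adjusted p = 0.07). Among all genes 19.9% were lower.

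The lowest value of the whole comparison was that of Rflnb, which encodes a filamin-binding regulator. It went from 18700 and 18000 to 34.3, a difference of -9.06 (probe at chr11:75833662-75833721 in mm9). Its second probe, not well above background after stimulation, had 7440 and 6420 in untreated cells. Slc28a2, a nucleoside transporter gene, went from 106000 and 95300 to 944. The cannabinoid receptor gene Cnr2 went from 3420 and 3430 to 51.8, and Cd7 from 12200 and 13100 to 206. These 4 genes fell in the model, as did the phosphodiesterase gene Pde2a and the GTPase gene Arl4c, with differences of -5.99 and -5.84. Further genes were not well above background after stimulation, so that the amino acid transporter gene Slc6a19 was at least 44.0-fold lower, the AMP deaminase gene Ampd1 at least 42.4-fold and the Wnt feedback gene Axin2 at least 38.6-fold.

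The second pair of arrays sets TCR 6 h against no TCR stimulation in cells that had IFNβ, and shares no array with the first. There 3996 of 19832 genes were at least 2-fold higher (20.1%) and 5031 at least 2-fold lower (25.4%). Of 3787 genes called higher without IFNβ and measured there, 3565 were also higher and 3004 past 2-fold. Of 3916 called lower, 3710 were also lower and 3110 past 2-fold. In the opposite direction past 2-fold were 64 and 23 genes. Over 19686 genes Pearson's r was 0.84 and Spearman's rho 0.80, a description across genes, which are not independent replicates, on arrays that share a slide apart from untreated array 1. The labelled IFNβ time also differs within the second pair, 7 h on the array without TCR stimulation and 1 h on the array with it. The second pair is therefore not a replicate of the first.

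**Figure D5:**
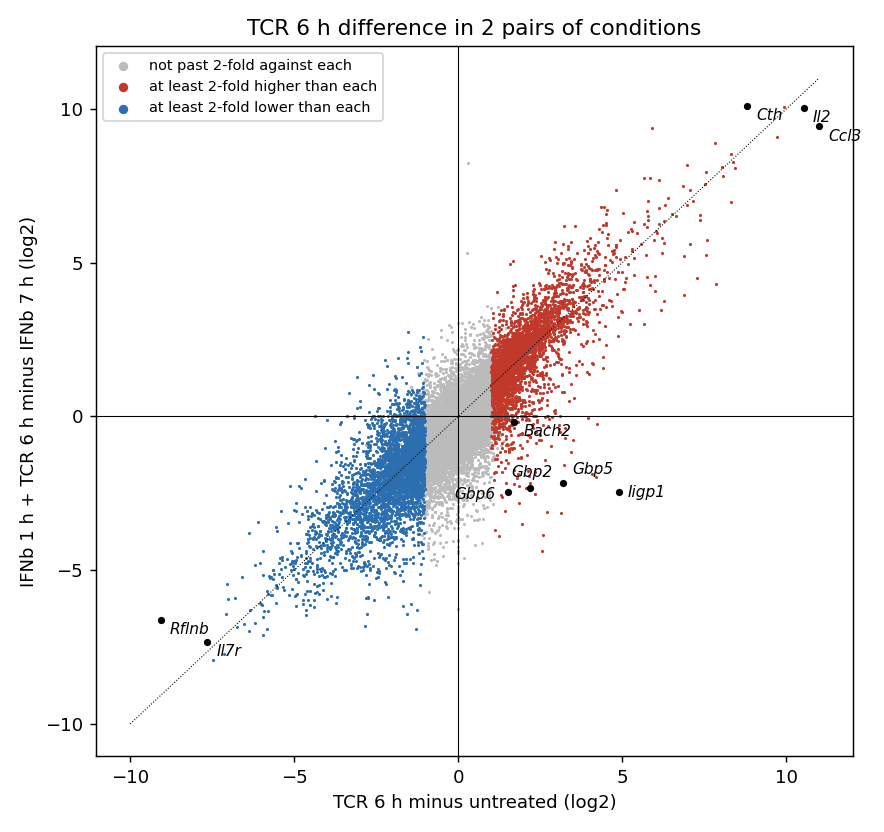
Log2 difference for IFNβ 1 h with TCR 6 h minus IFNβ 7 h (vertical) against TCR 6 h minus untreated (horizontal), with each gene as a point, the red and blue calls taken from the horizontal comparison, and equality dotted. Most called genes lie in the lower left and upper right parts, while Iigp1, Gbp5, Gbp2 and Gbp6 are higher without IFNβ and lower with it.

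Interferon response genes had different counts in the 2 pairs, a difference that was not tested. The 2 arrays of the interferon-treated pair also differ in labelled IFNβ time (7 h and 1 h). Without IFNβ 7 of 44 members were higher and 22 lower (median -1), and in the interferon-treated pair none were higher and 42 lower (median -3.39). No member rose in the model and 17 fell. Among the lower members Oas1b went from 381 and 372 to 40.3, the RNA sensor gene Ddx58 from 1500 and 1480 to 165, Ifit3 from 1290 and 1200 to 167, and Irf7, the amplifier of interferon production, from 1890 and 1860 to 259. These antiviral genes fell. The highest members were GTPase genes that interferon gamma also induces. Iigp1 had 258 and 248 in untreated cells and 7490 after TCR 6 h, and Gbp5 had 350 and 346 against 3170. Neither passed in the model (adjusted p = 0.64 and 0.79). Class I presentation had 3 of 16 higher and 2 lower, with a median of -0.14 that was 0.06 with median scaling. Neither count was above the share of all genes (19.2% higher and 19.9% lower). The proteasome activator genes Psme1 and Psme2 were higher, at 1.78 and 2.04, without passing, whereas the immunoproteasome gene Psmb10 fell from 29200 and 29400 to 8990. The Ifnb1 gene was not among the measured genes.

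Chromatin enzymes had 9 of 26 members higher and 4 lower, against 19.2% and 19.9% of all genes, so lower members were no more frequent than among all genes. The histone demethylase gene Kdm6b rose 7.21-fold and the arginine methyltransferase genes Prmt1 and Prmt5 rose 6.27-fold and 4.17-fold. The histone deacetylase genes Hdac7 and Hdac5 went apart, from 10300 and 10100 to 38500 and from 5640 and 5090 to 701.

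Different probes of a gene mostly gave the same answer. Among 5135 genes with a second probe the median absolute difference between the 2 was 0.28 on the log2 scale, and of 2306 genes past 2-fold by the brightest probe 2193 had the same sign by the second and 1779 were past 2-fold too. In 18 genes any 2 probes were past 2-fold against the untreated mean in opposite directions. Among them was Plcg1, which encodes a phospholipase of TCR signalling. Its probe at chr2:160558083-160558142 (mm9) had 705 and 669 in untreated cells and 2100 after stimulation, and its probe at chr2:160587192-160587344 had 1080 and 1030 against 241. The integrin gene Itgb3 had 3590 and 3560 against 9790 at chr11:104528490-104528560 and 5110 and 5100 against 479 at chr11:104531672-104531731. Atad5, Ncrna00081, Tmc6 and Tmem198b were of the same kind. The dimmer Nkrf probe had 99 and 54.7 against 30.6, which is not past 2-fold against untreated array 2. The Ubap2l probes differed by 1.95, 1.07, 0.68 and -1.62. For all of these genes no single direction can be given. Whether a probe lies in an exon or an untranslated region was not looked up, since no annotation of the mm9 build was used here.

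Markers of the labelled cell type and of other cells were read on the same arrays. The CD8 T cell markers had a summed signal of 681000 and 680000 in untreated cells and 351000 after stimulation, and 5 of 9 were lower, among them Cd8a (30600 and 30800 against 6620) and Cd3e (2870 and 2940 against 708). B cell markers summed to 13400 and 13100 against 4600 (3 of 7 kept lower, none higher). Markers of class II presenting cells summed to 23900 and 23500 against 11100. Of these, 4 of 8 were lower, namely H2-Aa, H2-Ab1, H2-Eb1 and Cd74. Myeloid markers summed to 4050 and 4170 against 1970 (3 of 8 lower). For CD4 T cells the sums were 3030 and 3070 against 3090 with none past 2-fold, and most of each sum was Ctla4 (2750 and 2800 against 2780). NK cell markers summed to 656 and 644 against 976. Of the 5 kept, Eomes was higher (369 and 366 against 787) and Klrb1c lower (131 and 135 against 54.9). Erythroid markers summed to 4070 and 4060 against 4690, with 1 of 6 higher and 1 lower. Ncr1 and Cd40lg were at the floor of 15 on all 3 arrays. In bulk samples fewer cells of a type and less RNA per cell cannot be told apart, and the part of other cells in the lower lists was not tested.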

How the data were processed

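Labelled cRNA made from total RNA was hybridised to Agilent arrays in 1 colour, with 4 arrays to a slide. The authors' scanner files hold, per the file headers, linear processed intensity (Agilent Feature Extraction 10.7.3.1, and 9.5.3.1 per the submitters' processing notes) and coordinates of build mm9. The deposited series values are the same intensity times a factor for each array (75th percentile 1500, floor 15), so scale and direction follow from that match, with column medians of 89.57, 92.25 and 80.68 for the untreated arrays and TCR 6 h. Between 26065 and 29533 of 43379 non-control spots per array were well above background, and the number of arrays limits the precision. The value columns of both arrays with TCR for 1 h, with and without IFNβ, each matched the scanner file of the other.

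From these files log2 signal was computed, with repeated spots averaged. Of 41174 probes 28673 were kept (well above background on at least 2 arrays), and 26204 were matched by accession to a RefSeq symbol (GRCm38.p6), 3082 of them with another name than the file's. The remaining probes kept the file's name. At 146 probes with 1460 spots the untreated arrays differed with an SD of 0.0579 (log2), against 0.0546 from spot noise, and were counted as 1 sample. Limma 3.58.1 in R 4.3.3 (with data.table at version 1.17.8) fitted IFNβ and TCR 6 h as additive terms, with moderated p-values adjusted by the Benjamini-Hochberg method (8848 genes had an unadjusted p under 0.05), and was tested on simulated data. P-values measure the difference in TCR 6 h response between the 2 pairs of arrays, moderated over all genes, and no spread between replicates. That difference may be technical or may go with IFNβ. Python 3.11.15 with matplotlib 3.10.9 drew the figures.

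Genes named in the text were the 15 highest and 15 lowest differences, up to 4 per list and direction past 2-fold, up to 8 bounds per direction, up to 8 genes with opposite probes and a fixed set of cytokine, receptor and transcription factor genes, some of which are not reported here. Promoter stretches are from members with a match before the start, in order of their difference. The members, the 33 lists and the tests were chosen with earlier results of these data known.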

Additional observations from a re-analysis of the deposited data

Results flagged for a closer look

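The TCR 6 h difference went in opposite directions past 2-fold with and without IFNβ for 4 named genes, all interferon-inducible GTPases. With 1 array per condition this difference was not tested, and the 2 arrays of the pair with IFNβ also differ in labelled IFNβ time. Without IFNβ the log2 difference was 4.89 for Iigp1, 3.19 for Gbp5, 2.18 for Gbp2 and 1.53 for Gbp6. In the pair with IFNβ it was -2.45, -2.16, -2.33 and -2.45. All 4 were named from the interferon response list, where 42 of 44 members were lower in that pair. Over all genes, 64 called higher and 23 called lower without IFNβ were past 2-fold in the opposite direction there. The signal of Iigp1 was 64200 with IFNβ alone for 7 h, 11700 where TCR stimulation followed IFNβ and 7490 after TCR stimulation alone. The signal of Gbp2 was 202000, 40100 and 35600 on the same arrays. Both arrays with 6 h of TCR stimulation were thus closer to each other than to their own comparison arrays for these 2 genes. Cxcl10, chosen after its values were seen, had the same pattern, at 3.13 without IFNβ and -3.15 with it.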

How the results depend on the processing

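Without untreated replicate 1 or 2 the counts of genes past 2-fold were 3961 to 4468 higher and 4164 to 4185 lower, and the counts in the model were 2813 to 3106 and 2804 to 3203. Background correction by normexp gave 2471 genes lower in place of 3928. With no filter on dim probes limma gave 0 genes in each direction, with 7126 of 28132 at an unadjusted p under 0.05 and 6124 genes at the floor on all 5 arrays used. No other tool was run. The untreated arrays as separate samples gave 5213 genes higher in the model in place of 3193. Median scaling moved the share of higher calls in the model from 49.1% to 61.3%. The other alternatives kept each count within 1.5 times. Of 2126 values of named genes under the alternatives 2124 kept their sign and 791 moved by more than the gene's own SD between the untreated arrays. The exceptions were Plcg1 at -0.26 and Itgb3 at -0.98 with the median over probes. Of 238 named genes past 2-fold, 233 remained past it with median scaling (not Gimap3, Pfkm, Tap2, Tet3 and Xpo1), 230 with quantile normalization (not Foxp1, Mlx, Pcna, Pfkm, Psma7, Psme1, Rpl14 and Ubap2l), 231 with normexp (not Cd38, Hspa1b, Il10, Klrg1, Lair1, Pfkm and Ubap2l) and 229 with the median over probes (not Atad5, Erap1, Itgb3, Mlx, Ncrna00081, Nkrf, Plcg1, Tmem198b and Ubap2l), and the cause was not tested. All 222 of them that could be measured with probes well above background on all 3 arrays remained past it. Under the scanner files' assignment of the 1 h arrays, chosen after seeing the data, the order of the 1 h and 6 h values turned in 24 of 238 named genes. List medians kept their sign in 293 of 297. No paired analysis was possible because the TCR 6 h group has 1 array, so that fewer than 2 replicate numbers are shared with the untreated group. Signals near the floor of 15 understate a difference.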
